A study of Mus musculus with 9 samples.

Results

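The ribosomal protein genes described here are 32 genes of the cytosolic ribosome, 16 of the large and 16 of the small subunit, among 8251 mouse genes that the arrays measured with a probe set naming a single gene. They were chosen by symbol (Rpl or Rps with a number, and the stalk proteins Rplp0 to Rplp2, without the kinases whose names start with Rps6k). Each gene was represented by the probe set with the highest mean over the 9 arrays. The symbols, and not the change between days, decided membership.

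The arrays held total RNA of mouse embryonic orofacial tissue, from which the face and the palate form, at gestation days (GD) 12, 13 and 14. Each day had 3 one-colour oligonucleotide arrays. The labels give no genotype, strain or treatment that would set the days apart, and nothing in them tells whether arrays of the same day share embryos, a litter or a pool. All p-values therefore measure only the spread between these samples. The comparisons ask which members differed between the days, and whether the large and the small subunit moved alike.

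The cytosolic ribosome translates nearly all cellular mRNA. Its small subunit binds and decodes the mRNA, and its large subunit joins amino acids and releases the growing chain through an exit tunnel. The genes of its proteins are transcribed in every cell, their mRNAs share a pyrimidine-rich start that links their translation to the growth kinase mTORC1, and their products are needed in balanced amounts. In humans, loss of 1 copy of several of these genes causes Diamond-Blackfan anaemia, in which cleft palate can occur, and in mice Rpl38 mutation alters skeletal patterning.

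The array annotation covered the family in part. The RefSeq gene table (GRCm38.p6) holds 81 protein-coding genes of the symbol pattern, of which 31 had a probe set of their own. A further 30 were named only on probe sets that also list other genes, and the annotation named the other 20 on no probe set. The remaining member was Rps4l, a paralog of Rps4x that RefSeq classes as a transcribed pseudogene. Rps6, Rpl5, Rpl24, Rpl12 and Rplp1 had only probe sets with several symbols, and Rpl11, Rps27a and Rplp2 were among those named on no probe set. Of Rplp0, Rplp1 and Rplp2, the proteins of the stalk that binds elongation factors, Rplp0 alone was measured by a probe set of its own.

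Values are the deposited intensities, whose near-equal trimmed means (150 to 150.6) put the arrays on a common scale, and intensities of different probe sets are not compared as amounts of RNA. Of the 32 members, 21 had a mean intensity over 200, the lowest at 310.3 and 18 of them over 1000. The other 11 had means of 49.7 or less. Intensities were transformed to log2 after adding 3, and probe sets with a mean log2 value at or under the 25th percentile, an intensity of 10.4, were left out. That filter kept 26 members, 12 large and 14 small, and left out Rpl32, Rpl35a, Rpl38, Rpl39, Rps14 and Rps27l. A member kept only through a day on which it is high would have to differ between days, so counts over the 26 describe these genes and not all 32. All changes come from limma fitted to 9326 probe sets, with p-values adjusted over all of them by the Benjamini-Hochberg method.

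The third array of each day stood apart from the others. The actin control is probed near both ends of its mRNA, and its 3′ over 5′ signal ratio is higher where RNA or labelling is less complete. On the third array it was 1.42 on GD12, 1.25 on GD13 and 1.37 on GD14, against 1.54 to 2.45 on the other 6 arrays. The Gapdh ratio was 0.802 to 0.851 on the third arrays and 1.09 to 1.29 on the others. On replicates 1 and 2 the actin ratio was higher on later days, with 1.54 and 1.77 on the GD12 arrays, 2.09 and 2.23 on the GD13 arrays and 2.45 and 2.29 on the GD14 arrays, so that on those arrays RNA or labelling quality and gestation day cannot be told apart. Facial mesenchyme markers (6 of 6 with a probe set) summed to intensities of 2173 to 2292 on GD14 and 2714 to 3440 on GD12. None of the facial markers Msx1, Pax9, Prrx1, Twist1, Alx4 and Dlx5 was listed at 0, but only 2 values of all probe sets on the arrays were. Alx4 and Pax9 were dim, with GD14 means of 29.9 and 33.3, while Msx1 and Twist1 averaged 584 and 1241. Dlx5 averaged 262 on GD14 and 169 on GD12 (limma adjusted p = 0.0586), while the means of the other facial markers were lower on GD14. Markers of other cells also moved with the day. Bone markers (3 of 5 with a probe set) summed to 7970 to 9613 on GD14 and 995 to 1357 on GD12, and red cell markers (4 of 5) to 10344 to 13685 on GD14 and 20062 to 26381 on GD12. The red cell markers did not move alike. Hba-x averaged 440 on GD14 and 4115 on GD12, and Hbb-y and Hbb-bh1 were also lower on GD14, while Hba-a1 averaged 8043 and 7538. Skeletal muscle markers (4 of 4) summed to 992 to 1615 on GD14 and 377 to 406 on GD12. Oral epithelium markers (6 of 6) summed to 609.7 to 639 on GD14 and 375 to 434 on GD12, and macrophage markers (4 of 4) to 364 to 439 on GD14 and 159 to 199 on GD12. Within the oral epithelium list Krt8 averaged 298.5 on GD14 and 127.4 on GD12, while Cdh1 averaged 170.6 and 170.4. Krt5 and Krt14 were too dim to be tested, with means of 4.67 and 8 on GD14 and 8.23 and 7.6 on GD12. Neuron markers (4 of 4) summed to 981 to 1149 on GD14 and 1245 to 2015 on GD12, and endothelial markers (4 of 4) to 413 to 436 on GD14 and 394 to 435 on GD12. Liver markers (3 of 3) were low, at 77.8 to 142 on GD14 and 70.1 to 75.6 on GD12. In whole tissue a shift in the share of a cell type and a shift in RNA per cell cannot be told apart, and the part of either in the results below was not tested.

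One member changed between the days. Rpl39l, the paralog of the exit tunnel protein Rpl39 that is known in mice for replacing it in ribosomes of male germ cells, was higher on GD13 and GD14 than on GD12. Its probe set had 13.6, 19.2 and 16.0 on the GD12 arrays, 52.4, 55.9 and 57.6 on the GD13 arrays and 63.8, 49.1 and 72.9 on the GD14 arrays. All 6 later arrays lay above all 3 GD12 arrays, while GD13 and GD14 overlapped. The mean was 61.9 ± 12.0 on GD14 and 16.3 ± 2.81 on GD12 (SD, n = 3 each), a log2 change of 1.75 (SE 0.19, 3.35-fold, limma adjusted p = 0.00142). The mean was 55.3 ± 2.65 on GD13 (SD, n = 3), a log2 change from GD12 of 1.61 (SE 0.19, 3.05-fold, limma adjusted p = 0.00703). From GD13 to GD14 the log2 change was 0.14 (SE 0.19, limma adjusted p = 0.94). The second daily step minus the first was -1.47 on the log2 scale and did not pass (limma adjusted p = 0.769). The moderated F-test over the 3 days gave an adjusted p of 0.00271.

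The GD12 intensities of Rpl39l lay above the filter intensity of 10.4 but near it, so the size of its rise depended on the added value. The GD14 minus GD12 log2 change was 1.86 after adding 1 and 1.41 after adding 11. It was 1.69 with quantile normalization and 1.62 without the 3 arrays numbered 3. Leaving out the third arrays ended the GD13 call (log2 1.57, adjusted p = 0.0926, 6 arrays left) and kept the GD14 call (adjusted p = 0.0366). Rpl39l had a single probe set, so no other probe set bears on the result. The probe set of Rpl39 itself stayed under the filter, with 6.0, 2.7 and 8.2 on GD12, 9.2, 13.2 and 14.6 on GD13, then 5.9, 3.8 and 11.8 on GD14. Rps27l, the paralog of Rps27, was also under the filter, at 1.4 to 4.4 over the 9 arrays.

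The remaining 25 members did not pass in any comparison. Against GD12, 1 of 26 members was called on GD14, where 4.3% of all 9326 probe sets were called, and 1 of 26 on GD13, where 0.643% were. In the F-test 1 of 26 members passed, against 2.58% of all probe sets. From GD13 to GD14 limma called 0 of 26 members and 0.0429% of all probe sets. In that comparison 0 members had an unadjusted limma p under 0.05, against 7.18% of all probe sets. For the difference of the daily steps limma called 0 of 26 members, with 1 at an unadjusted p under 0.05, and 0% of all probe sets, with 453 at an unadjusted p under 0.05. Only Rpl39l and Rps4l had 3 values per day that did not overlap between GD14 and GD12, 2 of 26 members, where 22.3% of all tested probe sets showed such separation. Between GD13 and GD12 the values of 8 of 26 members did not overlap, against 18.5% of all tested probe sets. Among the 123 other probe sets of highest mean signal, 38 did not overlap in that comparison, a share like that of the members. Rpl39l was higher on GD13, and Rpl6, Rpl7a, Rpl8, Rpl10a, Rpl41, Rps7 and Rps28 had all 3 GD13 values under all 3 GD12 values, with log2 changes of -0.37 to -0.19 that did not pass.

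**Figure D1:**
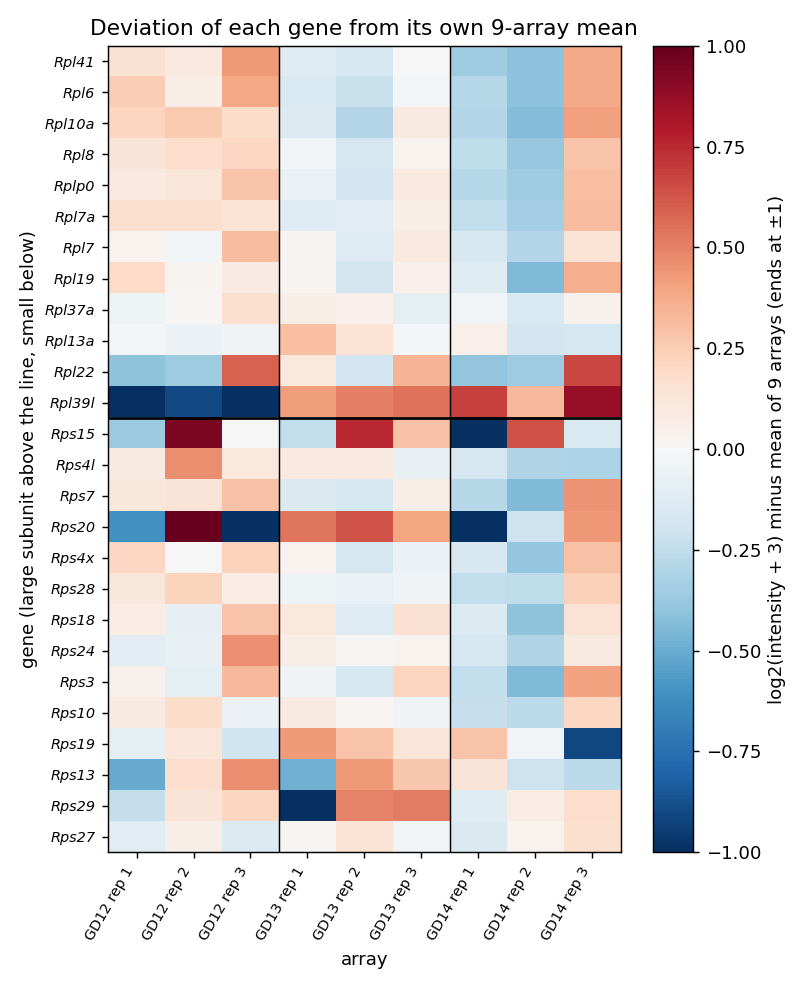
Each row is 1 of the 26 tested members and each column 1 array; the colour is log2(intensity + 3) minus the member's own mean over the 9 arrays, with 12 large subunit genes above the black line and 14 small subunit genes below it. Most rows are blue on GD14 replicates 1 and 2 and red on GD14 replicate 3, while Rpl39l is blue on the 3 GD12 arrays alone.

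Most members had slightly lower means on GD14 than on GD12, and none of these differences passed the test. The log2 change was under 0 for 22 of 26 members, against 52.5% of all tested probe sets. Its median over the members was -0.22, with quartiles of -0.28 and -0.16, against -0.022 over all tested probe sets. Between GD13 and GD12 the median was -0.096 for the members and 0.025 for all probe sets (members -0.022 without GD12 replicate 3 and 0.0023 with quantile normalization), and between GD14 and GD13 it was -0.060 and -0.030. Rplp0, the base of that stalk, illustrates the arrays behind these values. It had 9805, 9957 and 11212 on GD12, 8748, 8032 and 9813 on GD13, followed by 7537, 7179 and 11332 on GD14. GD14 replicates 1 and 2 were the lowest of the 9 arrays and GD14 replicate 3 was the highest, so the days overlapped. The mean was 8683 ± 2302 on GD14 and 10325 ± 772 on GD12 (SD, n = 3 each), a log2 change of -0.28 (SE 0.20, limma adjusted p = 0.544).

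The same order of arrays recurred across the subunits. Rpl6, a large subunit protein, had 6571, 5786 and 7237 on GD12, 4984, 4724 and 5464 on GD13, then 4544, 4160 and 7192 on GD14, with a log2 change of -0.34 (SE 0.22, limma adjusted p = 0.486). Rpl41, the smallest protein of the ribosome, had 14588, 13998 and 17597 on GD12, 12038, 11700 and 13162 on GD13, followed by 10247, 9869 and 17026 on GD14 (log2 -0.35, SE 0.22, limma adjusted p = 0.478). For both genes all 3 GD13 values lay under all 3 GD12 values, but GD14 overlapped GD12 through replicate 3. Rpl10a, a protein of the separate stalk beside the exit site of spent tRNA, had 5534, 5716 and 5434 on GD12, 4350, 3904 and 5085 on GD13, then 3893, 3544 and 6340 on GD14 (log2 -0.32, SE 0.23, limma adjusted p = 0.53). In the small subunit, Rps7, mutated in some human families with Diamond-Blackfan anaemia, had 6883, 6942 and 7763 on GD12, 5737, 5631 and 6624 on GD13, followed by 5212, 4687 and 8692 on GD14 (log2 -0.27, SE 0.23, limma adjusted p = 0.621). Rps3, which lines the channel through which mRNA enters, had 6089, 5543 and 7397 on GD12, 5771, 5303 and 6857 on GD13, then 4988, 4349 and 7808 on GD14. In each of these genes GD14 replicate 2 was the lowest array, and GD14 replicate 3 was above both other arrays of its day.

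**Figure D2:**
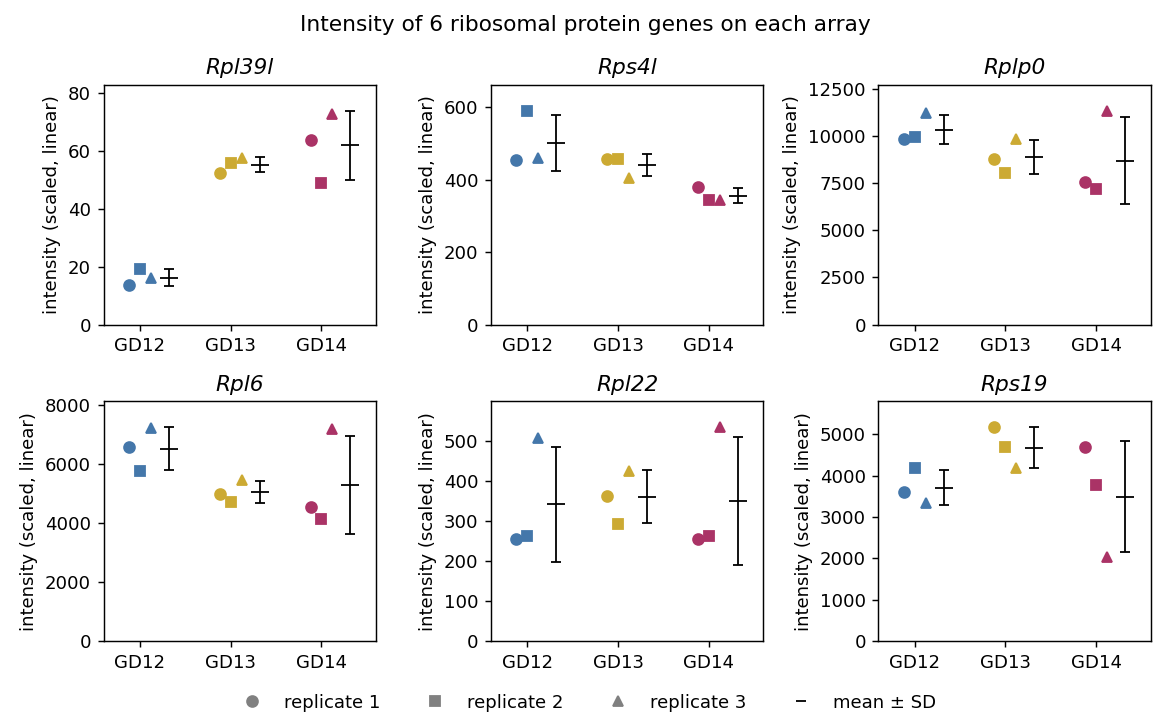
Deposited linear intensity of 6 members on each array by gestation day, with a marker shape per replicate number and the mean ± SD of the 3 arrays beside it. Rpl39l lies at 13.6 to 19.2 on GD12 and 49.1 to 72.9 later, Rplp0 and Rpl6 have their GD14 replicate 3 far above the other GD14 arrays, Rpl22 is highest on replicate 3 of each day, and Rps19 is lowest on GD14 replicate 3.

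Counted over members, GD14 replicate 3 was the highest array of its day for 21 of 26, against 34% of all tested probe sets. Replicates 1 and 2 of GD14 both lay under replicates 1 and 2 of GD12 for 16 of 26 members, against 25.2% of all tested probe sets. Without GD14 replicate 3 the median log2 change of the members from GD12 to GD14 was -0.38, against 0.0019 over all probe sets, and no member but Rpl39l passed. Without the 3 arrays numbered 3 it was -0.38 as well, and without GD14 replicate 2 it was -0.12. Among the third arrays alone, the mean of the 21 members over 200 differed by -0.012 on the log2 scale between GD14 and GD12, while on replicates 1 and 2 it differed by -0.31. Thus the lower level on GD14 was seen on replicates 1 and 2 and was near 0 between the third arrays, which also had the lower actin and Gapdh ratios. The part of RNA or labelling quality in this was not tested. With the actin ratio as a covariate the median change was -0.11. On replicates 1 and 2 that ratio rose with the day, and within each day it was lowest on the third array. This fit therefore cannot tell the ratio from other differences of the third arrays.

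Other probe sets of high signal had the same order of GD14 arrays, whereas the mean over all tested probe sets was -0.056, 0.086 and -0.011 on the GD14 arrays. The 123 other probe sets of highest mean signal had mean deviations from their own 9-array mean of -0.10, -0.23 and 0.11 log2 units on the GD14 arrays and 0.080, 0.048 and 0.12 on the GD12 arrays. The 21 members over 200 had -0.18, -0.31 and 0.18 on GD14 and 0.057, 0.066 and 0.20 on GD12. GD14 replicate 3 was the highest of its day for 90 of those 123 probe sets, and replicates 1 and 2 of GD14 lay under those of GD12 for 79 of them. Of these 123 probe sets limma called 3 higher and 4 lower on GD14 than on GD12. With that set as the base, the 21 members were at -0.085, -0.082 and 0.075 on GD14 and -0.023, 0.018 and 0.079 on GD12. Quantile normalization, which gives every array the same distribution of values, gave a median change of -0.0064 for the 26 members, in place of -0.22, and of -0.036 over all probe sets. Rpl41 held the highest value on every array, so its change under quantile normalization is 0 by construction. With median scaling the median change of the members was -0.26.

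**Figure D3:**
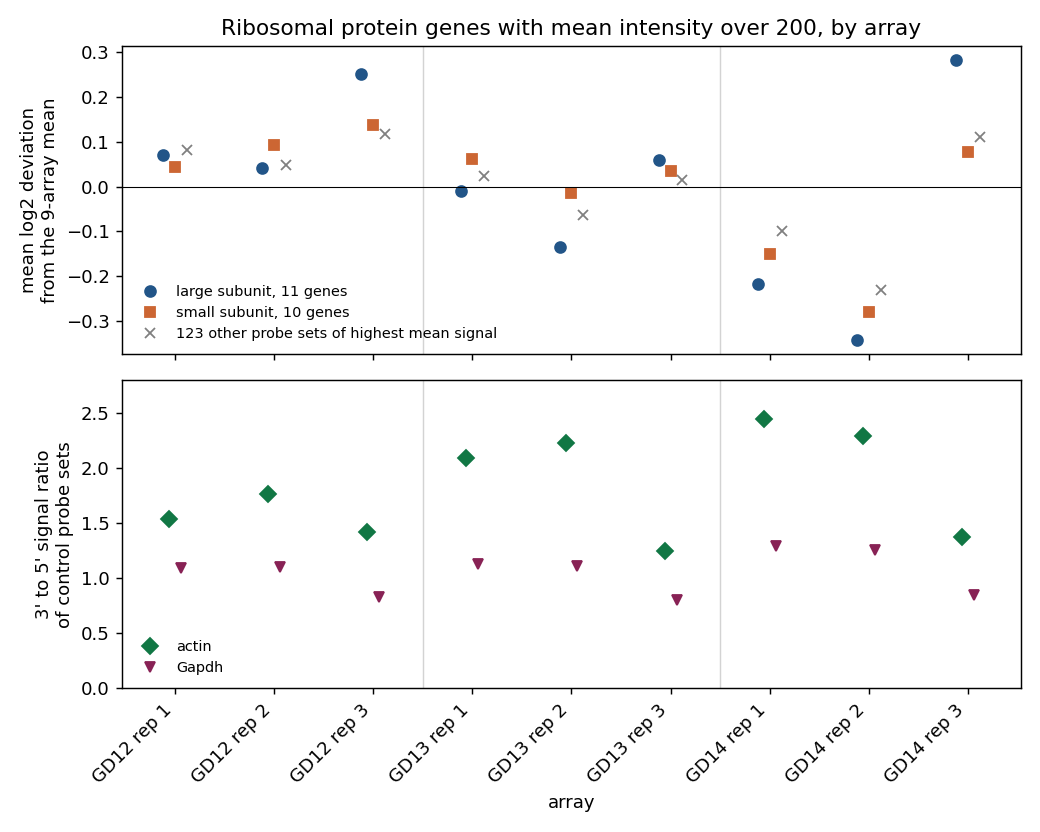
The upper panel gives, per array, the mean log2 deviation from the 9-array mean of the 11 large and 10 small subunit genes with a mean intensity over 200 and of 123 other probe sets of highest mean signal; the lower panel gives the 3′ to 5′ signal ratios of the actin and Gapdh controls. All 3 sets are low on GD14 replicates 1 and 2 and high on GD14 replicate 3, and both ratios are low on the third array of each day.

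The large minus small subunit difference was followed by array. Over the tested members, the mean deviation of the 12 large minus the 14 small subunit genes was 0.12 ± 0.20 log2 units on GD14 and -0.057 ± 0.19 on GD12 (SD, n = 3 each), and -0.060 ± 0.16 on GD13 (SD, n = 3). The difference between GD14 and GD12 was 0.17, with 0.15, 0.17 and 0.20 between the arrays numbered 1, 2 and 3, and it was 0.064 without GD12 replicate 2. Leaving out GD14 replicate 3 gave 0.10, and leaving out GD14 replicate 2 gave 0.29. Without Rpl39l the difference was 0.011, with -0.039, 0.035 and 0.038 between same-numbered arrays. Over the 21 members with a mean intensity over 200 it was -0.0048, with -0.094, -0.013 and 0.092. The split at 200 was chosen after the values were seen. In that set the large subunit genes stood at -0.22, -0.34 and 0.28 on the GD14 arrays and at 0.070, 0.042 and 0.25 on the GD12 arrays. The small subunit genes stood at -0.15, -0.28 and 0.076 on GD14 and at 0.042, 0.093 and 0.14 on GD12. The 2 subunits kept the same order of arrays within GD14, with replicate 2 lowest and replicate 3 highest, and the large subunit genes spread more widely. The median log2 change from GD12 to GD14 was -0.23 for 12 large and -0.22 for 14 small subunit genes. From GD12 to GD13 it was -0.18 for the large and -0.052 for the small subunit, and from GD13 to GD14 it was -0.044 and -0.14. The per-array large minus small value over the 21 members was -0.056 ± 0.074 on GD13 and 0.030 ± 0.082 on GD12 (SD, n = 3 each), a difference of -0.086 where the SD pooled over the 3 days was 0.11. Between same-numbered arrays it was -0.099, -0.070 and -0.089, below 0 in 3 of 3 pairs. Over all tested members the GD13 minus GD12 pairs were 0.038, 0.0425 and -0.091, and so did not share a sign. Without Rpl39l these pairs were -0.11, -0.090 and -0.25, all below 0. The difference of the day means was then -0.15, where the pooled SD was 0.19. From GD13 to GD14 the pairs were 0.11, 0.13 and 0.29 over all tested members. Over the 21 members they were 0.0051, 0.057 and 0.18, above 0 in both sets.

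**Figure D4:**
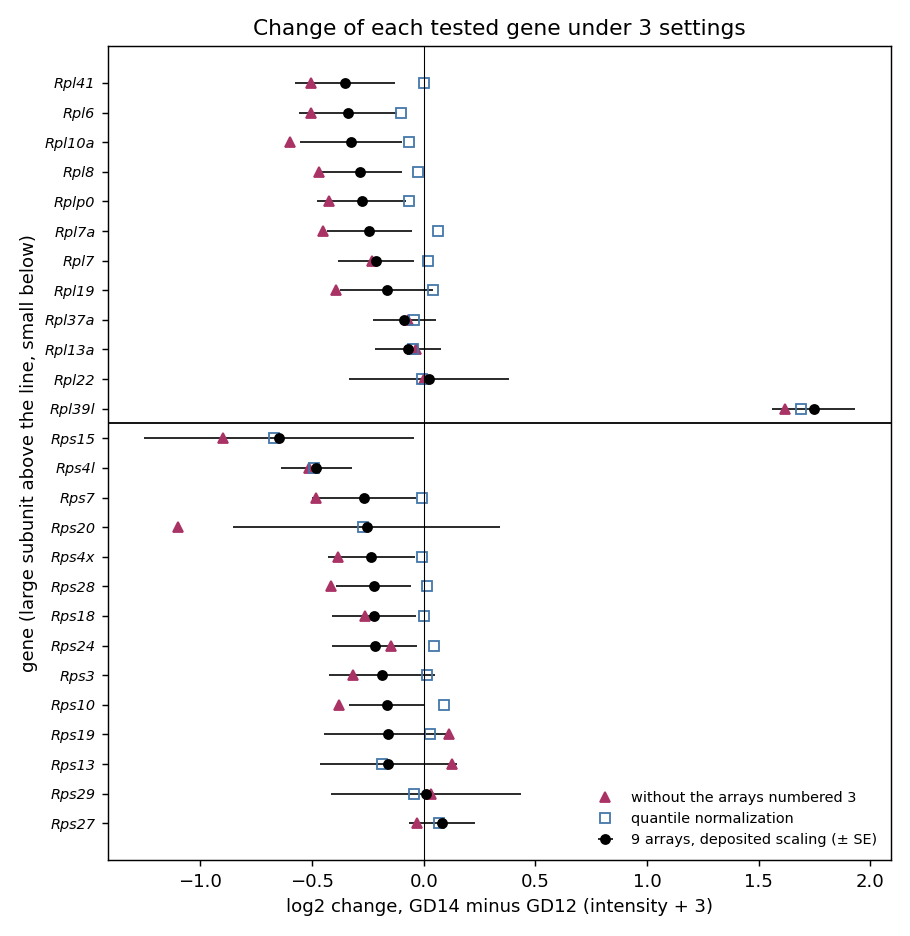
Log2 change from GD12 to GD14 of each of the 26 tested members, as fitted on 9 arrays with the SE, without the 3 arrays numbered 3, and after quantile normalization. Rpl39l lies at 1.75, 1.62 and 1.69 under the 3 settings, Rps4l keeps its lower value under all 3 settings, and most other members lie under 0 with the deposited scaling and near 0 after quantile normalization.

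Some members departed from that shared order. Rps4l, the Rps4x paralog, had 454, 590 and 459 on GD12, 458, 456 and 405 on GD13, followed by 380.1, 345 and 343 on GD14. Its 3 GD14 values lay under all others, also on the third array. The mean was 356 ± 20.9 on GD14 and 501 ± 77.2 on GD12 (SD, n = 3 each), and the log2 change of -0.48 (SE 0.16) did not pass (limma adjusted p = 0.149). It was -0.51 without the third arrays and -0.49 with quantile normalization, and the fit blocked on replicate number gave it an adjusted p of 0.1. A second Rps4l probe set had a log2 change of 0.36 (limma adjusted p = 0.70). Rps4x, the X-linked small subunit gene, had 8025, 6964 and 8131 on GD12, 7106, 6180 and 6675 on GD13, then 6200, 5297 and 8492 on GD14, following the shared order.

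Rps19, the gene most often mutated in human Diamond-Blackfan anaemia and one whose mouse mutants have dark skin, ran against the others on the third arrays. Its 3 arrays had 3596, 4174 and 3343 on GD12, then 5159, 4686 and 4170 on GD13, and 4677, 3763 and 2038 on GD14. The third array was the lowest of each day, and GD14 replicate 3 was the lowest of all 9. The log2 change from GD12 to GD14 was -0.16 (SE 0.28, limma adjusted p = 0.835), and 0.11 without the third arrays. Rpl22, whose loss in mice impairs T cell development, showed the opposite. It had 254, 262 and 508 on GD12, 362, 293 and 425 on GD13, followed by 254, 261 and 534 on GD14, so that replicate 3 was the highest of every day while the day means were 350 ± 159 on GD14 and 341 ± 144 on GD12 (SD, n = 3 each; log2 0.023, limma adjusted p = 0.987). Its dimmer second probe set, with a mean of 46.9, had a log2 change of 0.50 (limma adjusted p = 0.62).

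Other members had small spreads within the day. Rpl37a, a zinc-binding large subunit protein, had 2030, 2111 and 2351 on GD12, 2184, 2171 and 1974 on GD13, then 2056, 1887 and 2166 on GD14, with the smallest residual SD of the tested members (0.098 log2 units). Rps27, another zinc-binding protein, had 288, 322 and 281 on GD12, 313, 341 and 303 on GD13, followed by 280.2, 318 and 347 on GD14 (residual SD 0.12). Rpl13a, released from the ribosome to silence inflammatory mRNAs in human monocytes, averaged 955 ± 92.5 on GD14 and 1000 ± 18.5 on GD12 (SD, n = 3 each; residual SD 0.12). Among the 21 members over 200 the residual SD ran from 0.098 to 0.50 with a median of 0.22, and over all tested probe sets the median was 0.29.

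Besides Rpl39l, the tested members of low signal were Rps13, Rps15, Rps20 and Rps29, of which Rps15, Rps20 and Rps29 had the largest residual SDs of the tested members. Rps15 had 9.7, 28.3 and 13.3 on GD12, 10.8, 24.5 and 17.0 on GD13, then 1.5, 22.4 and 11.7 on GD14 (residual SD 0.88), with replicate 2 the highest of each day. Rps20, a small subunit gene whose mouse mutants also have dark skin, had 6.1, 29.2 and 3.9 on GD12, 17.1, 18.4 and 15.2 on GD13, followed by 2.3, 9.0 and 15.7 on GD14 (residual SD 0.87). Rps29 averaged 48.8 ± 5.37 on GD14 and 48.8 ± 8.20 on GD12 (SD, n = 3 each), with a residual SD of 0.60. Both probe sets of Rpl38, the gene of the mouse Tail-short mutant, stayed under the filter. The used one had 3.2, 12.1 and 2.7 on GD12, 14.6, 10.9 and 9.9 on GD13, then 11.1, 14.4 and 7.7 on GD14. Rpl32, Rpl35a and Rps14 were likewise too low to enter the test, at 2.5 to 34.1 over the 9 arrays.

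Of the 32 members, 22 had 1 single-symbol probe set and 10 had several, and the further probe sets did not all move alike. For Rpl10a a second set with a mean of 1782 had a log2 change of 0.19, against -0.32 for the used one, and its GD14 replicate 3 was the lowest of the day, at 1092 against 2522 and 1898. For Rps28, a second set with a mean of 5950 had a log2 change of 0.075 against -0.22, and another, with a mean of 22.9, had -0.65. For Rpl19 a set with a mean of 44.1 had 0.93, against -0.17 for the used one. A dim set of Rps4x (mean 16.2) had -1.77 against -0.23 (limma adjusted p = 0.105). None of these passed. The used probe sets of Rpl7 and Rps24 are annotated with the same source sequence, so they may not measure separate mRNAs. Another Rps24 set, with a source sequence of its own, had a mean of 25.7 and a log2 change of -0.34. The used Rps24 set counts as a small subunit gene and as a Diamond-Blackfan anaemia gene here. The subunit comparison was not repeated without it.

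Probe sets that name a ribosomal protein gene among several symbols, and so name no gene here, numbered 38, of which 35 were tested. Between GD14 and GD12 limma called 4.3% of all tested probe sets and gave 17.5% an unadjusted p under 0.05. For these 35 the median log2 change was -0.20, and limma called 0 of 35, with 0 at an unadjusted p under 0.05. Those over an intensity of 200 (27) had mean deviations of -0.12, -0.23 and 0.071 on the GD14 arrays and 0.011, 0.028 and 0.18 on the GD12 arrays, with replicate 2 the lowest and replicate 3 the highest GD14 array, as for the members. Of 4 ribosomal protein genes with names outside the symbol pattern limma called 0 between GD14 and GD12, with 0 at an unadjusted p under 0.05. Rps3a1 had 7916, 7533 and 9129 on GD12, 7401, 7015 and 7671 on GD13, followed by 6510, 5960 and 8425 on GD14 (log2 -0.25, limma adjusted p = 0.529), and Rpsa had a log2 change of -0.15 (limma adjusted p = 0.737). GD14 replicate 2 was the lowest and replicate 3 the highest GD14 array for both. Rpl7l1 had 111, 95.5 and 123 on the GD14 arrays and 113, 94.6 and 153 on the GD12 arrays. Fau, at 11.5, 27.0 and 18.7 on the GD14 arrays and 14.8, 21.5 and 26.0 on the GD12 arrays, had replicate 2 as its highest GD14 array. From GD12 to GD13 the log2 change was 0.42 for Fau and 0.24 for Rpl7l1 (limma adjusted p = 0.642 and 0.721).

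Further lists of translation genes were set beside the members for GD14 minus GD12, where limma called 4.3% of all tested probe sets and 17.5% had an unadjusted p under 0.05. Of 60 tested genes of mitochondrial ribosomal proteins limma called 0, with 4 at an unadjusted p under 0.05, and the median log2 change was -0.084. Mrpl34, of the large mitochondrial subunit, averaged 354 ± 97.0 on GD14 and 555 ± 23.4 on GD12 (SD, n = 3 each; limma adjusted p = 0.1). Of 31 initiation factor genes limma called 0 (1 at an unadjusted p under 0.05, median -0.074), and Eif2b5, a subunit of the exchange factor that recharges eIF2, averaged 195 ± 26.0 on GD14 and 290 ± 8.99 on GD12 (SD, n = 3 each; limma adjusted p = 0.15). Of 49 ribosome assembly genes limma called 0 (1 at an unadjusted p under 0.05, median -0.14), and of 15 genes for RNA polymerase I, which transcribes ribosomal RNA, 0 (1 at an unadjusted p under 0.05, median -0.20). Of 9 elongation and termination factor genes limma called 0, with 0 at an unadjusted p under 0.05 (median -0.24), and of 18 genes of the mTORC1 pathway 0, with 1 at an unadjusted p under 0.05 (median 0.012). Of 16 other mRNAs with a pyrimidine-rich start limma called 0 (1 at an unadjusted p under 0.05, median -0.17). These lists overlap: Eef1a1, Eef1d, Eef2 and Eef1b2 are also elongation genes, and Npm1 is also a ribosome assembly gene. With quantile normalization the median was -0.13 for ribosome assembly, -0.22 for RNA polymerase I, -0.21 for elongation and termination, -0.12 for the other pyrimidine-start mRNAs, -0.090 for mitochondrial ribosomal proteins, -0.070 for initiation factors and 0.0012 for the mTORC1 pathway, against -0.0064 for the 26 ribosomal protein genes and -0.036 over all probe sets. Among the members, 8 belong to the human Diamond-Blackfan anaemia genes. Of their 7 tested limma called 0, with 0 at an unadjusted p under 0.05 (median -0.16).

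RefSeq promoters (GRCm38.p6, 250 bases before to 50 after an annotated start) were found for 25 of the 32 members and gave 34 windows. A C followed by at least 4 bases that are each C or T is the form of the start of mRNAs under mTORC1 control. On the strand that reads as the mRNA, it began within 10 bases of an annotated start in 17 of 25 member genes (68%), against 34.4% of 27025 genes. A gene counts if any of its windows has the run. By window it was 18 of 34 (52.9%), against 30.7% of all windows. CCGGAAG, the core bound by ETS factors, was found on either strand of the window in 10 of 25 member genes (40%), against 9.93% of all genes. By window it was 10 of 34 (29.4%), against 8.86%. The reverse complement of CCGGAAG itself holds such a pyrimidine run, so the 2 counts overlap. A match is a description and not a mapped start or site. The stretches of 40 bases before to 20 after the annotated start are shown for the gene that changed, for its paralog, for 3 members with a run at the start and for Rpl41, which had none in that window. Capitals mark the pyrimidine runs found.
Rpl39l, chr16:10170188-10170247, + strand: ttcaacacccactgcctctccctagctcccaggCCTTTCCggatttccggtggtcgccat
Rpl39, chrX:37085203-37085262, - strand: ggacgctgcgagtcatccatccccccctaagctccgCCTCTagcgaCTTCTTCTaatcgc
Rps27, chr3:90213629-90213688, - strand: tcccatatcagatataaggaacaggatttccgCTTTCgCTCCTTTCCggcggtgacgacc
Rps10, chr17:27635225-27635284, - strand: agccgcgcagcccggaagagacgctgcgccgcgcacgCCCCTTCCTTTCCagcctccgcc
Rps18, chr17:33955646-33955705, - strand: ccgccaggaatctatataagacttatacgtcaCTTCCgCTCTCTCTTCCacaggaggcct
Rpl41, chr10:128549149-128549208, - strand: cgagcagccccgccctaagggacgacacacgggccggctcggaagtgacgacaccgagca
Rpl39l, which changed, and Rps10, Rps18 and Rps27, which did not pass, all had a run near the start. Rps10 averaged 4781 ± 914 on GD14 and 5308 ± 441 on GD12, and Rps18 averaged 6162 ± 1165 on GD14 and 7138 ± 910 on GD12 (SD, n = 3 each).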

How the data were processed

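Total RNA of orofacial tissue was measured on 9 arrays, 3 per gestation day. The deposited intensity of each probe set is linear; how the authors computed and scaled it is not given in the sources used here. Trimmed by 2% at both ends, the array means lay between 150 and 150.6. The 12488 probe sets held 66 controls; of the others, 10833 had 1 gene symbol, 396 several and 1193 none. Arrays carry no read depth, and 3 arrays per day limit the precision.

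The table was fitted with limma 3.58.1 in R 4.3.3 on log2(intensity + 3), with 3 group means, 6 residual and 2.85 prior degrees of freedom. Called means an adjusted p under 0.05. The script was tested on simulated data. Python 3.11.15, numpy 2.4.6, pandas 2.3.3 and matplotlib 3.10.9 made summaries and plots. Groups came from the sample titles. Residuals of same-numbered arrays correlated at 0.189 to 0.419 over all tested probe sets and at -0.062 to 0.716 over the tested members. The numbers may therefore pair the arrays. The main fit left this pairing out, and the fit with the numbers as a block is an alternative. Members and lists were chosen with earlier results of these data known. Named are called members, the 3 largest rises and falls per subunit, stalk members, paralogs, members whose probe sets differ by over 0.5, genes of known mutants, and the 3 largest and smallest residual SDs; others named were chosen after their values were seen. The alternatives tried were added values of 1 and 11, median scaling, quantile normalization, other filters, trend with robust variances, array weights, the replicate block, the actin covariate, omission of arrays, only the days compared and the mean of a gene's probe sets.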

Additional observations from a re-analysis of the deposited data

How the results depend on the processing

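The call of Rpl39l between GD14 and GD12 held under the 20 alternatives in which it was tested, with adjusted p from 0.000709 to 0.0366, and its log2 change ran from 1.41 to 1.90. A filter at the median intensity left it out, and the counts of called members for GD13 minus GD12, GD14 minus GD12 and the F-test were then 0. Without the 3 arrays numbered 3, chosen after the data were seen, the counts for GD13 minus GD12 and the F-test were 0. With the replicate number as a block the adjusted p of Rpl39l was 0.0046 for GD14 minus GD12 and 0.0248 for GD13 minus GD12, and the block changed no other call of a member. The median change of the members from GD12 to GD14 was -0.22, and -0.0064 with quantile normalization, -0.38 without GD14 replicate 3 and -0.38 without the 3 arrays numbered 3; with 1 array left out it ran from -0.38 to -0.12. From GD13 to GD14 it ran from -0.25, without GD14 replicate 3, to 0.047, without GD14 replicate 2, against -0.060. From GD12 to GD13 it ran from -0.17, without GD12 replicate 1, to -0.022, without GD12 replicate 3, against -0.096, and was 0.0023 with quantile normalization. The large minus small subunit difference from GD12 to GD14 was 0.17 and ran from 0.064 to 0.29 with 1 array left out. Over all 23 alternatives it ran from -0.0048 to 0.29, a range that includes 0. Each moved it by less than 1 SD of the arrays, but that pooled SD, 0.18, is larger than the difference itself. Adding actin as a covariate or array weights gave the same counts. Low signal limits Rpl32, Rpl35a, Rpl38, Rpl39, Rps14 and Rps27l, which were not tested.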
